A study of Mus musculus with 8 samples.

Results

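The genes described here are 10 genes of megakaryocytes and platelets, taken by name from a list: *Pf4*, *Vwf*, *Selp*, *Itga2b*, *Itgb3*, *Gp1bb*, *Gp9*, *Gp6*, *Fli1* and *Gfi1b*. They are 10 of the 48709 gene identifiers in the count files, and all 10 were among the 12696 genes that passed the filter on low counts and were tested. RNA was sequenced from C57Bl/6J mouse hematopoietic stem and progenitor cells, sorted as lineage-negative, Sca1-positive and cKit-positive (the receptor for stem cell factor) and seeded at 10000 cells per well. The malonyl-CoA group was 4 libraries of cells that grew for 7 days with 100 µM malonyl-CoA, the carbon donor of fatty acid synthesis. The control group was 4 libraries of cells grown for the same 7 days without it. Both groups had serum-free medium with 100 ng/ml stem cell factor and 2 ng/ml Flt3 ligand, renewed in part on day 3 or 4, and thrombopoietin, the main megakaryocyte growth factor, is not among the listed additions. RNA came from all progeny of the seeded cells, so a lower value from fewer cells of a type and a lower value from less RNA per cell cannot be told apart. The libraries carry the numbers 1, 3, 4 and 5 in each group. The submitters call them biological replicates without naming the animals or cultures, so p-values measure the spread between these libraries.

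Megakaryocytes are the large bone marrow cells that shed platelets. Platelets adhere to a damaged vessel wall through the glycoprotein Ib-IX-V complex, which binds von Willebrand factor, and through the collagen receptor glycoprotein VI. They aggregate through integrin αIIbβ3, which binds fibrinogen, and release granules filled with chemokines, growth factors and adhesion proteins. In the mouse, several of these genes, *Itga2b*, *Vwf*, *Selp* and *Pf4* among them, are also transcribed in hematopoietic stem cells or in progenitors close to them.

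No member passed the test for a difference between malonyl-CoA and control cultures. In edgeR's quasi-likelihood test 0 of the 10 members had an adjusted p under 0.05, where 0.0% of all tested genes did, and 0 members passed with DESeq2 or limma-voom. At an unadjusted p under 0.05 the count was 0 of 10, where 9.53% of all tested genes passed. The malonyl-CoA and control libraries overlapped for every member, while they did not overlap for 6.14% of all tested genes. The fitted log2 fold change, malonyl-CoA minus control, was positive for 7 members and negative for 3, with a median of 0.04 against 0.02 over all tested genes, of which 53.4% were positive. Summed over the 10 members, the level was 832 to 1090 CPM (counts scaled to a common library size, here by the trimmed mean of M-values, TMM) in malonyl-CoA libraries and 884 to 1092 CPM in control libraries.

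The 8 libraries held 17492085 to 21308153 counts in genes with malonyl-CoA and 18233714 to 22079844 in controls. Malonyl-CoA library 4 stood apart: it had the largest share of reads in no annotated gene, 2.94% against 1.11% to 1.56% in the other 7, and the highest score on the first principal component, 63.3 against 25.3 in the next library, control 4. Control library 5 had the strongest relation of expression with GC content (Spearman's rho of -0.69 across genes). This rho was 0.19 to 0.45 in malonyl-CoA libraries, and -0.07, -0.05 and 0.18 in control libraries 1, 3 and 4. The GC relation thus went in part with the group. Values without malonyl-CoA library 4 or control library 5 are given beside many, not all, of the results they move. The sorting markers were present in both groups: *Kit* averaged 244 ± 51.9 CPM with malonyl-CoA and 270 ± 36.7 CPM in controls, and *Ly6a*, which encodes Sca1, averaged 81.3 ± 37.2 CPM with malonyl-CoA and 42.2 ± 21.1 CPM in controls (SD, n = 4 each; adjusted p of 0.693 for *Kit* and 0.515 for *Ly6a* in edgeR's quasi-likelihood test).

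Compared per kilobase of annotated exon, the platelet chemokine led the 10 genes by a wide margin. *Pf4* averaged 274 ± 100 CPM per kb with malonyl-CoA and 316 ± 78.3 CPM per kb in controls (SD, n = 4 each). *Itga2b* followed with 59.8 ± 8.01 CPM per kb against 55.9 ± 12.04 CPM per kb in controls, and its libraries overlapped neither those of *Pf4* nor those of the next gene. *Itgb3*, *Gp9* and *Fli1* came next, at 27.6, 23.5 and 20.9 CPM per kb over all 8 libraries, and neighbours among these 3 overlapped. Below *Fli1*, and with no library in common with it, were *Gfi1b* at 9.41, *Vwf* at 7.78, *Gp1bb* at 7.75 and *Selp* at 6.87 CPM per kb, each overlapping the next. The place of *Gp1bb* is uncertain, because 1902 of its 2087 exon bases are shared with *Sept5* on the same strand. If reads there were counted for neither gene, its value per kb is too low. *Gp6* was lowest at 2.36 CPM per kb and did not overlap *Selp*. The order by group mean was the same in malonyl-CoA and control libraries for the first 6 places and for *Gp6* in the last. *Vwf*, *Gp1bb* and *Selp* averaged 8.25, 7.86 and 7.45 CPM per kb with malonyl-CoA, and 7.32, 7.64 and 6.29 CPM per kb in controls, where *Gp1bb* stood above *Vwf*. Each member had at least 196 counts in every library.

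**Figure D1:**
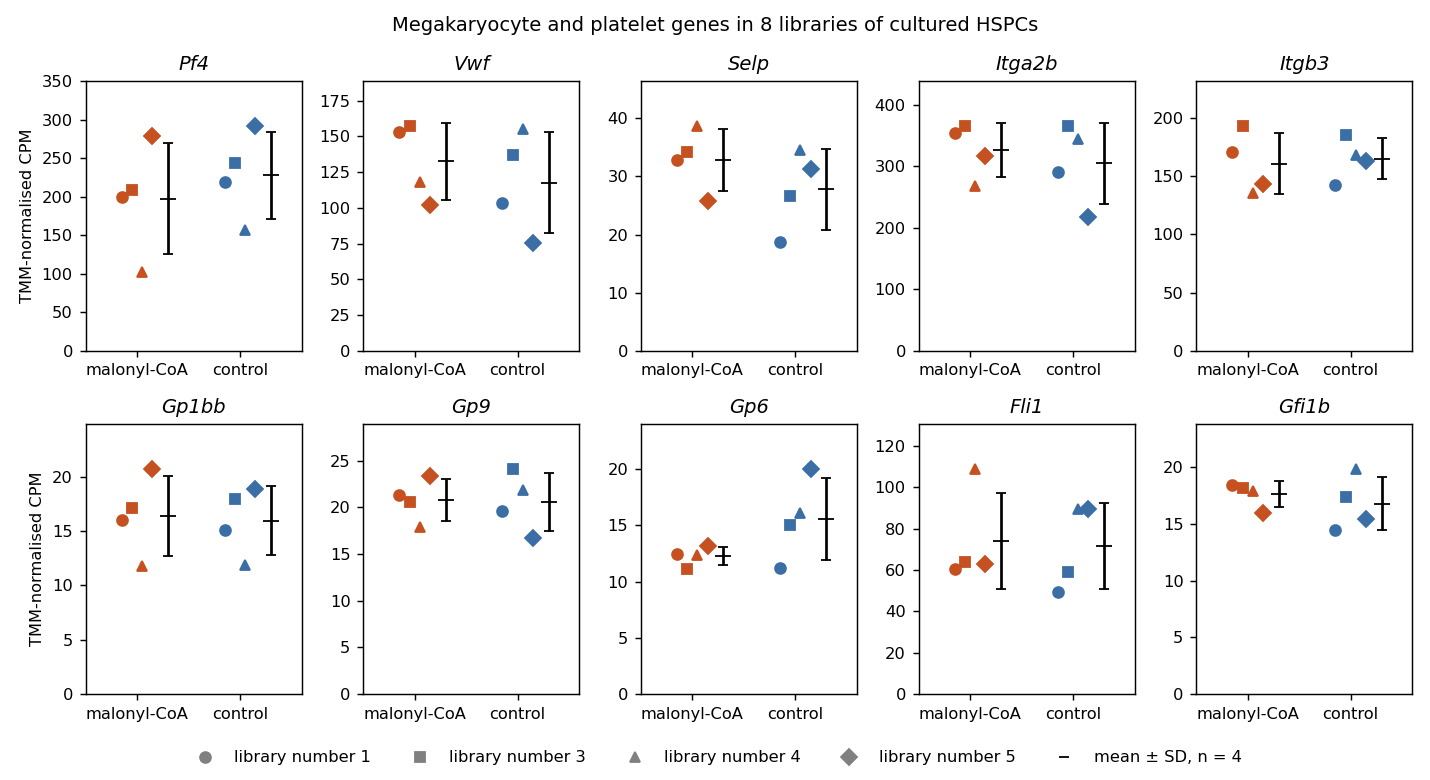
TMM CPM (axes from 0, a scale for each gene) of each of the 10 genes in the 4 malonyl-CoA libraries and the 4 control libraries, 1 point per library with its number as the shape, and the mean and SD of each group as a bar. The points of the groups overlap for every gene, and *Pf4* spreads over a 2.84-fold range while *Gfi1b* spreads over a 1.37-fold range.

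*Pf4*, *Vwf* and *Selp* encode proteins stored in platelet granules. *Pf4* (ENSMUSG00000029373, GRCm38 chr5:90772435-90773383, plus strand) encodes platelet factor 4, a heparin-binding chemokine of the α-granules. It measured 199, 209, 103 and 279 CPM in malonyl-CoA libraries 1, 3, 4 and 5, against 219, 245, 157 and 292 CPM in control libraries 1, 3, 4 and 5. Library 4 was the lowest and library 5 the highest of its group in both cases, and each malonyl-CoA library lay below the control library of its own number, although the groups overlapped widely. The mean was 198 ± 72.4 CPM with malonyl-CoA and 228 ± 56.4 CPM in controls (SD, n = 4 each). Its log2 fold change, malonyl-CoA minus control, was -0.21 (SE 0.28, adjusted p = 0.75, edgeR's quasi-likelihood test), with a 95% interval of 0.556-fold to 1.35-fold. Without malonyl-CoA library 4 the log2 fold change was 0.00086, and without that library and control library 5 it was 0.15. With both libraries numbered 4 left out it was -0.14.

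*Vwf* (ENSMUSG00000001930, GRCm38 chr6:125546774-125686679, plus strand) encodes von Willebrand factor, the multimeric ligand through which platelets tether to collagen under flow, and is made by megakaryocytes and endothelium. It measured 153, 157, 118 and 102 CPM in malonyl-CoA libraries 1, 3, 4 and 5, against 103, 137, 155 and 75.3 CPM in the control libraries of those numbers. Control 5 was the lowest of all 8, and malonyl-CoA libraries 1 and 3 lay close to control 4 at the top. The fitted difference was 0.17 on the log2 scale (SE 0.23, adjusted p = 0.74, edgeR's quasi-likelihood test), with a 95% interval of 0.79-fold to 1.61-fold. Without control library 5 it was 0.009, and with a correction for GC content 0.04.

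*Selp* (ENSMUSG00000026580, GRCm38 chr1:164115264-164150026, plus strand) encodes P-selectin, the α-granule membrane protein that binds leukocytes once a platelet or endothelial cell is activated. It measured 32.8, 34.2, 38.7 and 25.8 CPM in malonyl-CoA libraries 1, 3, 4 and 5, against 18.7, 26.6, 34.6 and 31.2 CPM in the control libraries of those numbers. Malonyl-CoA library 4 was highest and control 1 lowest. *Selp* had the largest positive log2 fold change of the 10 genes, 0.24 (SE 0.20, adjusted p = 0.604, edgeR's quasi-likelihood test), with a 95% interval of 0.866-fold to 1.62-fold. Without control library 1 it was 0.095, and without malonyl-CoA library 4 it was 0.15. Its exons overlap antisense transcripts *Gm16587* and *Gm16548*, which had 4 to 22 and 1 to 5 counts per library, and the strand setting of the counting is not given, so reads there cannot be assigned with certainty.

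*Vwf* and *Selp* are also endothelial genes. The summed level of the 12 endothelial markers was 66.8 to 84.0 CPM in malonyl-CoA libraries and 45.4 to 66.2 CPM in control libraries, without overlap. *Cldn5* and *Sele* were at 0 in all 8 libraries. Of the 12 markers 6 were tested and 0 passed an adjusted p of 0.05, and *Cdh5*, the cadherin of endothelial junctions, averaged 7.49 ± 0.958 CPM with malonyl-CoA and 5.23 ± 0.212 CPM in controls (SD, n = 4 each; log2 fold change 0.52, SE 0.15, adjusted p = 0.399, edgeR's quasi-likelihood test). All 6 tested markers had a log2 fold change above 0, with a median of 0.35. With the GC correction 4 were above 0 and 2 below, with a median of 0.14. Without control library 5 the median was 0.25. Whether the endothelial marker values bear on the *Vwf* and *Selp* values was not tested.

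*Itga2b* and *Itgb3* encode the αIIb and β3 chains of the fibrinogen receptor. *Itga2b*, also known as CD41 (ENSMUSG00000034664, GRCm38 chr11:102453297-102470122, minus strand), measured 353, 366, 268 and 316 CPM in malonyl-CoA libraries 1, 3, 4 and 5, against 291, 365, 345 and 218 CPM in the control libraries of those numbers. The lowest library was control 5, and malonyl-CoA library 3 and control library 3 were level at the top. The mean was 326 ± 43.7 CPM with malonyl-CoA and 305 ± 65.7 CPM in controls (SD, n = 4 each), and the log2 fold change was 0.10 (SE 0.17, adjusted p = 0.809, edgeR's quasi-likelihood test) with a 95% interval of 0.819-fold to 1.40-fold. With a correction for GC content the log2 fold change was -0.15, and without control library 5 it was -0.03.

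*Itgb3* (ENSMUSG00000020689, GRCm38 chr11:104608000-104670476, plus strand) pairs with αIIb on platelets and with αV on other cells. It measured 171, 193, 136 and 143 CPM in malonyl-CoA libraries 1, 3, 4 and 5, against 142, 185, 168 and 163 CPM in the control libraries of those numbers. The highest and the lowest library were both from malonyl-CoA cultures, so the control values lay inside the malonyl-CoA range. On the log2 scale the fold change was -0.04 (SE 0.14, adjusted p = 0.918, edgeR's quasi-likelihood test), with a 95% interval of 0.785-fold to 1.21-fold. Scaled by library size alone it was 0.004, and without malonyl-CoA library 4 it was 0.03.

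*Gp1bb* and *Gp9* encode small leucine-rich chains of the von Willebrand factor receptor, both needed for the complex to reach the platelet surface. *Gp9* (ENSMUSG00000030054, GRCm38 chr6:87778072-87779768, plus strand) measured 21.3, 20.6, 17.9 and 23.4 CPM in malonyl-CoA libraries 1, 3, 4 and 5, against 19.6, 24.1, 21.9 and 16.8 CPM in the control libraries of those numbers. Both the highest and the lowest library were controls. The log2 fold change was 0.01 (SE 0.15, adjusted p = 0.972, edgeR's quasi-likelihood test), with a 95% interval of 0.80-fold to 1.27-fold. With the GC correction it was -0.25, and without control library 5 it was -0.07.

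*Gp1bb* (ENSMUSG00000050761, GRCm38 chr16:18620317-18622403, minus strand) measured 16.0, 17.1, 11.8 and 20.7 CPM in malonyl-CoA libraries 1, 3, 4 and 5, against 15.1, 18.0, 11.8 and 18.9 CPM in the control libraries of those numbers. The libraries numbered 4 were lowest in both groups and those numbered 5 highest. The log2 fold change was 0.04 (SE 0.21, adjusted p = 0.947, edgeR's quasi-likelihood test), with a 95% interval of 0.746-fold to 1.41-fold, and with the GC correction it was -0.43. Its count is uncertain, because 1902 of its 2087 exon bases are shared with *Sept5* on the same strand, a gene with 84 to 172 counts per library. The other chains of the receptor, fixed among the platelet receptors listed further on, overlapped between the groups as well: *Gp1ba*, the chain that binds von Willebrand factor, averaged 26.4 ± 1.63 CPM with malonyl-CoA and 25.8 ± 8.82 CPM in controls, and *Gp5* averaged 48.2 ± 11.1 CPM with malonyl-CoA and 51.6 ± 6.88 CPM in controls (SD, n = 4 each). These chains were named for their role after their values were seen.

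*Gp6* (ENSMUSG00000078810, GRCm38 chr7:4363965-4397744, minus strand) encodes glycoprotein VI, the signalling receptor for collagen. It measured 12.5, 11.1, 12.3 and 13.1 CPM in malonyl-CoA libraries 1, 3, 4 and 5, against 11.2, 15.005, 16.1 and 20.0 CPM in the control libraries of those numbers. The malonyl-CoA libraries kept within a narrow range, 11.1 to 13.1 CPM, and control 1 lay inside that range. The mean was 12.3 ± 0.827 CPM with malonyl-CoA and 15.6 ± 3.63 CPM in controls (SD, n = 4 each). *Gp6* had the most negative log2 fold change of the 10 genes, -0.35 (SE 0.18, adjusted p = 0.515, edgeR's quasi-likelihood test). The 95% interval reached from 0.595-fold to 1.04-fold, and leaving out any one library kept the log2 fold change between -0.48 and -0.21, the weaker value without control library 5.

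**Figure D2:**
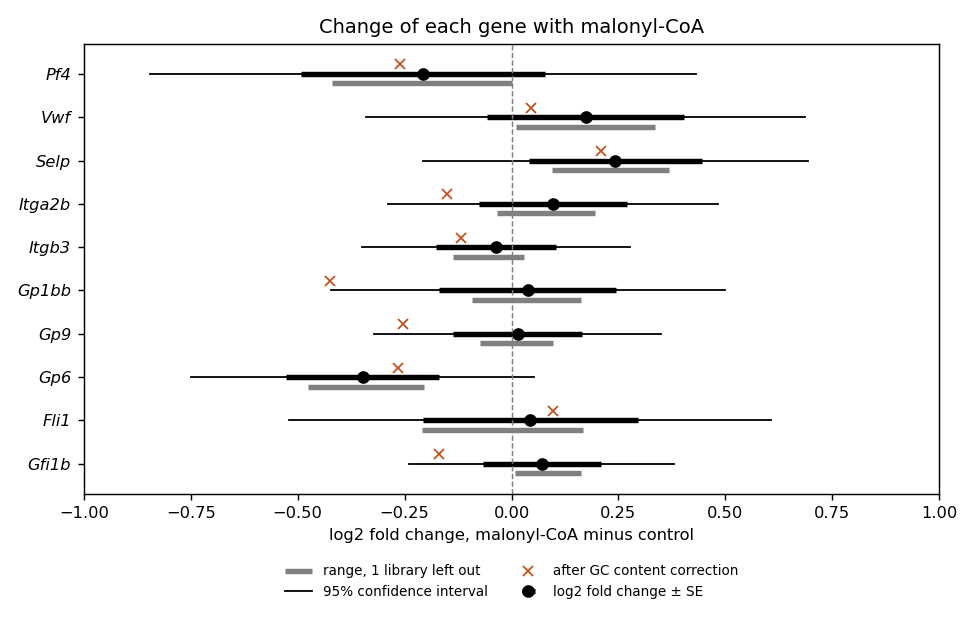
Fitted log2 fold change, malonyl-CoA minus control, of the 10 genes (points) with its SE (thick line) and 95% interval (thin line) from edgeR's quasi-likelihood fit of 4 against 4 libraries, the range with 1 library left out (gray) and the value after GC correction (crosses). Every 95% interval includes 0, and *Gp6* lies furthest to the negative side at -0.35 and *Selp* furthest to the positive side at 0.24.

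Fli1 and Gfi1b are the transcription factors among the members. *Fli1* (ENSMUSG00000016087, GRCm38 chr9:32422204-32542861, minus strand) encodes an ETS-family activator of late megakaryocyte genes that is also expressed in stem cells, endothelium and lymphocytes. It measured 60.4, 63.9, 109 and 62.7 CPM in malonyl-CoA libraries 1, 3, 4 and 5, against 49.2, 58.9, 89.2 and 89.5 CPM in the control libraries of those numbers. Malonyl-CoA library 4 stood far above the other 3 of its group, and controls 4 and 5 far above controls 1 and 3. *Fli1* had a log2 fold change of 0.04 (SE 0.25, adjusted p = 0.95, edgeR's quasi-likelihood test), with a 95% interval of 0.698-fold to 1.52-fold. Without malonyl-CoA library 4 it was -0.21.

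*Gfi1b* (ENSMUSG00000026815, GRCm38 chr2:28609450-28621982, minus strand) encodes a zinc-finger repressor needed for both megakaryocyte and erythroid maturation. It measured 18.5, 18.2, 18.0 and 16.0 CPM in malonyl-CoA libraries 1, 3, 4 and 5, against 14.5, 17.4, 19.8 and 15.4 CPM in the control libraries of those numbers. It varied least of the 10 genes over the 8 libraries. *Gfi1b* had a log2 fold change of 0.07 (SE 0.14, adjusted p = 0.83, edgeR's quasi-likelihood test), with a 95% interval of 0.847-fold to 1.30-fold, and with the GC correction it was -0.17. *Gfi1b* is shared with the erythroid program, of which several terminal genes had few counts or none. *Hbb-bt*, adult β-globin, had 1 to 17 counts per library, and *Hba-a2*, *Alas2* and *Slc4a1* were at 0 in all 8. Reads at several positions were left out, which can lower the counts of genes with close copies, such as the globins.

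The promoters of the members were searched for ETS motifs, the kind of site that Fli1 binds, and for GATA motifs, bound by the GATA factors of megakaryocytes. They are printed for 4 members, chosen because the 250 bases before their RefSeq start hold a match and no annotated exon, and because they cover the granule, adhesion, collagen-receptor and transcription factor genes. Sequences are from RefSeq, build GRCm38.p6, in the direction of transcription, and capitals mark a match on either strand. The first ETS motif searched was AGGAAG. The other form of it, with a different opening base, was CGGAAG. For the GATA family the letters searched were AGATAA. The other form searched for that family was TGATAA. No other letters were searched for either family, so the absence of a match holds for these forms only. *Pf4* is chr5:90772185-90772434 on the plus strand, *Gp9* chr6:87777820-87778069 on the plus strand, *Gp6* chr7:4397745-4397994 on the minus strand and *Gfi1b* chr2:28621983-28622232 on the minus strand.
Pf4: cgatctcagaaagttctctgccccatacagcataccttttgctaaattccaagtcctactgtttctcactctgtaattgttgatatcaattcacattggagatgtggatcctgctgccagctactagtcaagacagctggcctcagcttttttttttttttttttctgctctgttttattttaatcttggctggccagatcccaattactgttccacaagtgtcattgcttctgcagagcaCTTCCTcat
Gp9: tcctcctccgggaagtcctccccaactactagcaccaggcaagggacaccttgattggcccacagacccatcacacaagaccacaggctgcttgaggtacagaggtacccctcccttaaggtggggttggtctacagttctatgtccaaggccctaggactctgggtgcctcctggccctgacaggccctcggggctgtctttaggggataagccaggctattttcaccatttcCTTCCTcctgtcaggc
Gp6: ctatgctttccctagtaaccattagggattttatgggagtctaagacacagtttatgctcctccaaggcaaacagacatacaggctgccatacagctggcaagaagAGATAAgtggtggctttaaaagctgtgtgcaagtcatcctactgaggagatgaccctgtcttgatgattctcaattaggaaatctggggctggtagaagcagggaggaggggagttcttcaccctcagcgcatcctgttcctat
Gfi1b: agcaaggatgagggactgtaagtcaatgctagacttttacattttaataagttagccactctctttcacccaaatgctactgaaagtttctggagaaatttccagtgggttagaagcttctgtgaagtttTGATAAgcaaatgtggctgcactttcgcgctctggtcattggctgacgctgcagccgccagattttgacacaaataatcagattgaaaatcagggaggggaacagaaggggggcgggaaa
In *Pf4* the ETS match (capitals near the end, read on the opposite strand) lay 9 to 4 bases before the start, and in *Gp9* 16 to 11 bases before it. The GATA match lay 144 to 139 bases before the start of *Gp6* and 120 to 115 bases before that of *Gfi1b*. Of the 7 members with an entry, 5 held an ETS match (*Itga2b*, *Pf4*, *Gp1bb*, *Gp9* and *Selp*), 2 held a GATA match (*Gp6* and *Gfi1b*) and 0 held both. The window of *Itga2b* overlaps an annotated exon of *Itga2b* itself, and that of *Gp1bb* an exon of *Sept5*. Among 32851 promoters of the same length 39.2% held an ETS match, 16.6% a GATA match and 5.49% both, so single matches are common. With 0 members holding both, no GATA match overlapped an ETS match in them. A match is one of letters, not a measured binding site. The log2 fold changes of the 5 genes with an ETS match ran from -0.21 (*Pf4*) to 0.24 (*Selp*), and those of the genes with a GATA match were -0.35 (*Gp6*) and 0.07 (*Gfi1b*).

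Some members shared their high and low libraries and others did not. *Pf4* and *Gp1bb* shared their low libraries, malonyl-CoA 4 and control 4, and their high ones, malonyl-CoA 5 and control 5. *Fli1* ran the other way in library 4 of both groups. *Itga2b*, *Vwf* and *Gp9* were all at their lowest of the 8 libraries in control library 5, the library with the strongest GC relation, where *Gp6* and *Pf4* were at their highest.

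**Figure D3:**
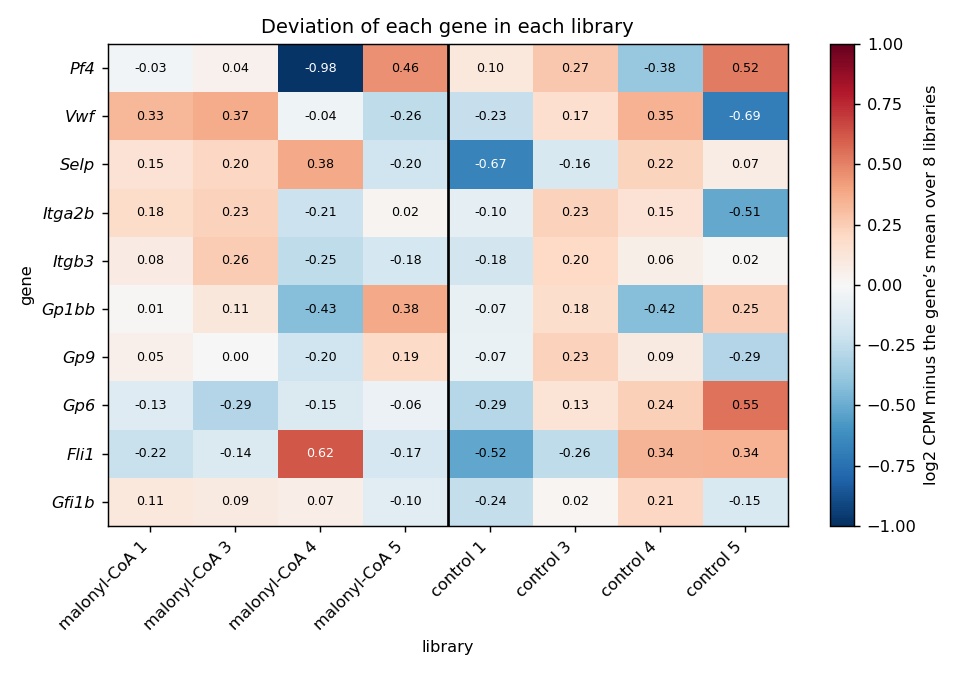
Deviation of each gene's log2 CPM from its own mean over the 8 libraries (color and printed value), with the 4 malonyl-CoA libraries on the left and the 4 control libraries on the right. Malonyl-CoA library 4 has the lowest value for *Pf4*, -0.98, and the highest for *Fli1*, 0.62, while control 5 is the lowest for *Vwf* and *Itga2b*.

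Genes most like *Itga2b* and *Pf4* were sought by Pearson's r of log2 CPM over the 8 libraries among 10659 genes, as a description. For *Itga2b* they were *Selenon* (r 0.94, Spearman's rho 0.93), *Ctsd* (r 0.94, rho 0.86) and *Pde7b* (r 0.94, rho 0.93). Without control 5 and malonyl-CoA 4, the libraries farthest from the median of *Itga2b*, r was 0.91, 0.68 and 0.74 for these genes, so the likeness of *Ctsd* and *Pde7b* rested in part on those libraries. Of the other members *Vwf* came closest to *Itga2b* (r 0.89, rank 16) and *Gp9* next (r 0.84, rank 67), while *Itgb3*, its partner chain, had an r of 0.55 (rho 0.86, rank 1490). Without the same 2 libraries r was 0.86 for *Vwf*, 0.39 for *Gp9* and 0.94 for *Itgb3*, so the place of *Gp9* and of *Itgb3* depended on them. For *Pf4* the nearest genes were *BC031181*, *Mrps30* and *Pigf*, each with an r of at least 0.99 and still at least 0.97 without the 2 farthest libraries. *Gp1bb* was the closest other member to *Pf4* (r 0.91, rho 0.90, rank 357), and *Itga2b* had an r of -0.05 with it. All 8 libraries share the same culture scheme but differ in how expression relates to GC content and to gene length (Spearman's rho with length across genes from -0.48 in malonyl-CoA library 5 to 0.41 in malonyl-CoA library 4), and the r values include this.

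A wider set of 93 megakaryocyte and platelet genes, in 4 lists drawn from general knowledge, was read from the same fit. Of these 91 were tested and 0 passed an adjusted p of 0.05, with a smallest adjusted p of 0.372. Without adjustment, p was under 0.05 for 2 genes with a higher and 5 with a lower mean level with malonyl-CoA, where 9.53% of all tested genes passed. The libraries of the groups did not overlap for 1 gene on the higher side and 5 on the lower, beside 6.14% of all tested genes. The median log2 fold change was -0.01 with 41 genes above 0 and 50 below, where the median of all tested genes was 0.02.

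Of the receptors and adhesion proteins, 23 of 24 were tested and 0 passed an adjusted p of 0.05, with 5 log2 fold changes above 0, 18 below and a median of -0.15. Without malonyl-CoA library 4 the split was 10 above and 13 below with a median of -0.04, and without that library and control library 5 it was 9 above and 14 below with a median of -0.07. With the GC correction the split was 1 above and 22 below with a median of -0.23. *Cd84*, an adhesion receptor of platelets and leukocytes, averaged 58.7 ± 1.04 CPM with malonyl-CoA and 76.1 ± 15.5 CPM in controls, without overlap (SD, n = 4 each; log2 fold change -0.38, SE 0.14, adjusted p = 0.502, edgeR's quasi-likelihood test). *Clec1b*, the receptor for podoplanin, averaged 13.4 ± 3.11 CPM with malonyl-CoA and 20.2 ± 8.57 CPM in controls (log2 fold change -0.59), *F2r*, a thrombin receptor, had a log2 fold change of -0.25 and *Cd9*, an abundant platelet tetraspanin, one of -0.33. Single libraries carried much of these values: without control library 5 the log2 fold change was -0.26 for *Clec1b* and -0.23 for *Cd84*, and without malonyl-CoA library 4 it was -0.17 for *Cd9*. With both of these libraries left out *Clec1b* was at -0.15, *F2r* at -0.13 and *Cd9* at -0.10.

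Of the granule and secreted proteins, 23 of 24 were tested, with 12 log2 fold changes above 0, 11 below, a median of 0.07 and 0 genes past an adjusted p of 0.05. *Srgn* encodes serglycin, the proteoglycan core that holds platelet factor 4 in the granule, and averaged 1260 ± 230 CPM with malonyl-CoA and 1771 ± 173 CPM in controls, without overlap (SD, n = 4 each; log2 fold change -0.49, SE 0.15, adjusted p = 0.419, edgeR's quasi-likelihood test). *Slc18a2*, the monoamine transporter that loads granules, averaged 25.6 ± 1.05 CPM with malonyl-CoA and 35.0 ± 4.00 CPM in controls, also without overlap (log2 fold change -0.45, SE 0.12, adjusted p = 0.372). *Ppbp*, another platelet chemokine, averaged 209 CPM per kb with malonyl-CoA and 273 CPM per kb in controls (log2 fold change -0.38, SE 0.18, adjusted p = 0.515). *Tgfb1*, the growth factor stored in α-granules and made by many blood cells, stood the other way at 323 ± 24.4 CPM with malonyl-CoA and 242 ± 42.1 CPM in controls, without overlap (log2 fold change 0.42, SE 0.13, adjusted p = 0.443). With the GC correction the log2 fold change of *Tgfb1* was 0.20, and without control library 5 that of *Ppbp* was -0.26. With control library 5 and malonyl-CoA library 4 both left out, that of *Ppbp* was -0.12 and that of *Tgfb1* was 0.33.

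*Srgn* and *Slc18a2* are also strongly expressed by mast cells, whose 12 markers summed to 766 to 880 CPM in malonyl-CoA libraries and 918 to 1106 CPM in control libraries, without overlap. None of the 12 was at 0 in all libraries, 10 were tested and 0 passed an adjusted p of 0.05. Their log2 fold changes were split, with 3 above 0, 7 below and a median of -0.18. *Cpa3*, the mast cell carboxypeptidase, averaged 158 ± 10.7 CPM with malonyl-CoA and 212 ± 43.8 CPM in controls (SD, n = 4 each; log2 fold change -0.43, SE 0.15, adjusted p = 0.472, edgeR's quasi-likelihood test). The part of these markers in the *Srgn* and *Slc18a2* values was not tested.

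Of the cytoskeleton, signalling and thromboxane genes all 25 were tested, with 16 log2 fold changes above 0, 9 below, a median of 0.11 and 0 genes past an adjusted p of 0.05. *Ptgs1*, the cyclooxygenase of platelets, averaged 58.9 ± 1.596 CPM with malonyl-CoA and 68.9 ± 3.59 CPM in controls, without overlap (SD, n = 4 each; log2 fold change -0.23, adjusted p = 0.515, edgeR's quasi-likelihood test). *Plcg2*, the phospholipase downstream of glycoprotein VI that many leukocytes share, averaged 246 ± 49.2 CPM with malonyl-CoA and 178 ± 35.9 CPM in controls (log2 fold change 0.47, SE 0.18, adjusted p = 0.503). *Lcp2*, an adaptor of the same pathway, had a log2 fold change of 0.21 and *Gng11*, a G-protein subunit, one of -0.52, which was -0.24 without control library 5. With the GC correction *Plcg2* was at 0.30, and without malonyl-CoA library 4 it was at 0.33. With malonyl-CoA library 4 and control library 5 both left out, *Plcg2* was at 0.30 and *Gng11* at -0.11. *Tubb1*, the tubulin of the platelet marginal band and named after its values were seen, had 21 to 42 counts per library, or 1.17 CPM per kb with malonyl-CoA and 1.04 CPM per kb in controls.

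Of the megakaryocyte transcription factors all 20 were tested, with 8 log2 fold changes above 0, 12 below, a median of -0.07 and 0 genes past an adjusted p of 0.05. *Tal1*, a partner of GATA factors in blood stem cells and megakaryocytes, averaged 78.7 ± 4.16 CPM with malonyl-CoA and 92.8 ± 6.04 CPM in controls, without overlap (SD, n = 4 each; log2 fold change -0.24, SE 0.10, adjusted p = 0.515, edgeR's quasi-likelihood test). *Zfpm1*, the GATA1 cofactor FOG1, had a log2 fold change of 0.75 (SE 0.36, adjusted p = 0.515), *Ldb1*, the bridging protein of the GATA and TAL1 complex, one of 0.37 and *Ets1* one of -0.27. With the GC correction the log2 fold change was 0.26 for *Zfpm1*, 0.08 for *Ldb1* and -0.44 for *Tal1*, and without malonyl-CoA library 4 it was 0.48 for *Zfpm1* and 0.20 for *Ldb1*. *Klf1*, the erythroid factor that opposes Fli1, averaged 1.06 ± 0.207 CPM with malonyl-CoA and 1.70 ± 0.0949 CPM in controls, without overlap and at 14 to 37 counts per library (log2 fold change -0.67, SE 0.21, adjusted p = 0.422). The 14 erythroid markers summed to 66.5 to 89.7 CPM in malonyl-CoA libraries and 89.1 to 104 CPM in control libraries.

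Under the GC correction the list medians were -0.23 for the receptors, -0.004 for the granule genes, -0.06 for the cytoskeleton and signalling genes and -0.11 for the transcription factors, so the granule and cytoskeleton medians turned sign. The granule median was also below 0 without control library 1, at -0.05, and without both libraries numbered 1, at -0.0006. The 12 neutrophil precursor markers summed to 13808 to 17662 CPM in malonyl-CoA libraries and 13663 to 21573 CPM in control libraries, the 12 monocyte and macrophage markers to 2761 to 3578 CPM with malonyl-CoA and 2355 to 3950 CPM in controls, and the 12 stem and progenitor markers to 1011 to 1048 CPM with malonyl-CoA and 1103 to 1206 CPM in controls. All 12 neutrophil precursor markers had a log2 fold change below 0, with a median of -0.40. For 5 of them the unadjusted p was under 0.05, and for 0 the adjusted p. Over all 12696 tested genes, 520 were lower at that unadjusted p. Without control library 1, control library 4 or malonyl-CoA library 3, left out singly, 3 of the 12 neutrophil precursor markers were above 0. *Srgn* is a granule gene of these cells too, and their part in its value was not tested. Of the monocyte and macrophage markers 10 were tested, with 8 log2 fold changes above 0, 2 below and a median of 0.21. For 3, all higher, the unadjusted p was under 0.05, as it was for 690 higher genes among all tested. The adjusted p was under 0.05 for 0 in edgeR and for 2 with DESeq2, where 0.685% of all tested genes passed. Without control library 4 the split was 5 above and 5 below. The stem and progenitor sum did not overlap between the groups, but the genes in it were split. Of 11 tested, 5 log2 fold changes were above 0 and 6 below, with a median of -0.02. The median was -0.22 without malonyl-CoA library 4 and 0.15 without control library 5. The part of these markers in the values of the members that stem cells also express was not tested.

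**Figure D4:**
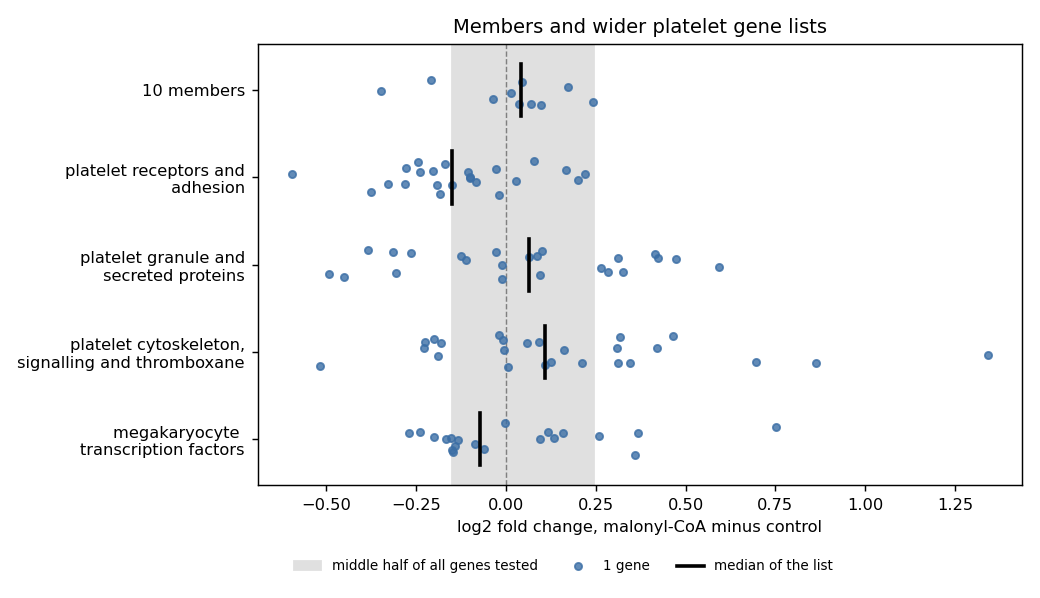
Fitted log2 fold change, malonyl-CoA minus control, of each tested gene of the 10 members and of the 4 wider lists (1 point per gene, vertical jitter only for legibility), with each list's median as a black line and the middle 50% of all 12696 tested genes shaded. The medians are 0.04 for the members, -0.15 for receptors, 0.07 for granule genes, 0.11 for cytoskeleton and signalling genes and -0.07 for transcription factors, and each lies within or at the edge of the shaded band.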

How the data were processed

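Each of the 8 libraries was a stranded total RNA library from 350 ng RNA. Cutadapt 1.8, STAR 2.5.2b, HTSeq 0.6.1 and the build GRCm38 are named, without their roles, per the submitters' processing notes. Which annotation was used is not given in the sources used here, nor is the strand setting. The deposited values are whole-number read counts per Ensembl gene, without normalization. Counter classes that name no gene were left out: reads at several positions were 38.2% (malonyl-CoA 4) to 51.1% (control 5), reads in no gene 1.11% to 2.94% and ambiguous reads 0.715% to 0.891% of all entries of a library's counter output.

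From these counts, symbols, exon lengths and coordinates came from GENCODE M21, which matched 48349 of 48709 identifiers. In R 4.3.3, edgeR 4.0.16 was run with filterByExpr (minimum count 10, total 15), TMM scaling, a robust glmQLFit and a two-sided glmQLFTest of malonyl-CoA against control, with Benjamini-Hochberg adjustment over 12696 genes and a threshold of 0.05. A prior count of 2 entered the log2 CPM values. The fits were tested on simulated data. Library pairs differed by a chi-square of at least 7.63 per gene, so none was a duplicate. Alternatives used DESeq2 1.42.0, limma 3.58.1 (voom), other scaling and filters, a loess GC correction (span 0.5), a replicate block and left-out libraries; an edgeR fit in legacy mode was added after seeing the data.

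All 10 members are named, with up to 4 genes of smallest p from each wider list, fixed markers of other cells, and the 3 genes most like *Itga2b* and *Pf4*. Members and lists were chosen with earlier results of these data known, so they carry no test over the list alone. The 95% intervals are from the edgeR fit over libraries.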

Additional observations from a re-analysis of the deposited data

Results flagged for a closer look

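Of 52 groups of 4 libraries checked for a single library far from the rest, 3 stood out, where chance marks about 1 in 20, and all 3 were malonyl-CoA library 4. *Fli1* was highest there, at 109 CPM against 60.4 to 63.9 CPM in the other malonyl-CoA libraries, a gap of 0.929 of the group's range. *Ldb1* was highest there too, at 146 CPM against 99.5 to 102 CPM, a gap of 0.952. *Cd9* was lowest there, at 102 CPM against 177 to 187 CPM, a gap of 0.892. Library 4 is also the one with 2.94% of reads in no gene.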

How the results depend on the processing

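The count of called members was 0 under all 23 alternatives, and so was that of the wider lists. The count over all genes was 1 without a filter on low counts (1 higher), 87 with DESeq2 (70 higher, 17 lower) and 0 otherwise, apart from fits with the replicate block. The block gave 172 calls (144 higher, 28 lower), and with the GC correction 14 (10 higher, 4 lower). Same-numbered deviations correlated at 0.43, 0.43, 0.75 and 0.052 for numbers 1, 3, 4 and 5. Malonyl-CoA libraries 1, 3 and 4 correlated best with the control of their own number, and malonyl-CoA 5 with control 1. The labels do not say what a number stands for, so the block stayed an alternative. With it 25.5% of all tested genes had an unadjusted p under 0.05 in edgeR's quasi-likelihood test, against 9.53% without it. Under the block *Pf4* had a log2 fold change of -0.26 (SE 0.11, unadjusted p = 0.0451, adjusted p = 0.186, edgeR's quasi-likelihood test), lower in 4 of 4 numbers, as were 17.0% of all genes; 10.5% of all genes were lower at an unadjusted p under 0.05.

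*Gp6*, *Selp* and *Vwf* kept their sign in all 23 alternatives, though *Vwf* ranged from 0.009 to 0.38, *Selp* from 0.094 to 0.41 and *Gp6* from -0.49 to -0.21. The 16 named wider genes, those of smallest p within each list, kept theirs too. They were picked by p in these same libraries, so a kept sign is no independent support. *Gp1ba* ran from -0.16 to 0.19 and *Gp5* from -0.18 to 0.05 with 1 library left out. Of 598 values of the members and those 16 genes, 34 changed sign, all at an adjusted p above 0.05. With the GC correction, and with it and the block, the log2 fold change was -0.15 and -0.17 for *Itga2b*, -0.43 and -0.39 for *Gp1bb*, -0.25 and -0.26 for *Gp9*, and -0.17 and -0.16 for *Gfi1b*. *Itgb3* was 0.0042 by library size alone. With 1 library or both libraries of a number left out, values ran from -0.034 to 0.23 for *Itga2b*, -0.14 to 0.040 for *Itgb3*, -0.42 to 0.00086 for *Pf4*, -0.091 to 0.16 for *Gp1bb*, -0.13 to 0.10 for *Gp9*, -0.21 to 0.24 for *Fli1* and -0.015 to 0.16 for *Gfi1b*. Without control 5 and malonyl-CoA 4 together, *Itgb3* was 0.031, *Pf4* 0.15, *Gp9* -0.0085 and *Fli1* -0.080. The cause of these changes was not tested. Each member had at least 196 counts per library, and 4 libraries a group leave intervals such as 0.556-fold to 1.35-fold for *Pf4*.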
